A study of Mus musculus with 20 samples.

Results

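The mitochondrial route of cell death was followed in the left ventricle through 10 genes of the Bcl2 family and its partners: Bcl2, Bcl2l1, Mcl1, Bak1, Bad, Bid, Bcl2l11, Bnip3, Bnip3l and Casp9. Each gene was read from the transcript cluster, the array's summary of a gene's probes, whose annotation gives that 1 gene symbol alone, and the cluster with the highest mean signal was taken where a gene had more than 1. The clusters were 10357043 for Bcl2, 10488655 for Bcl2l1, 10494306 for Mcl1, 10449303 for Bak1, 10461017 for Bad, 10547531 for Bid, 10475866 for Bcl2l11, 10414269 for Bnip3, 10394800 for Bnip3l and 10510034 for Casp9. All 10 genes were found among 34760 clusters, of which 21640 carry 1 gene symbol, 1321 carry several and 11799 are not listed in the annotation. Signals are log2 signals, so that a difference of 1 stands for a 2-fold change.

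The mice were male C57BL/6 animals, 2 months old by their labels, with 1 array for each of 20 mice. FA-DOXO mice (n = 6) ate a dough diet with 10 mg folic acid (FA) per day from 7 days before a single intraperitoneal injection of 20 mg/kg doxorubicin (DOXO), an anthracycline that is toxic to the heart, and DOXO mice (n = 6) had the injection and the diet without FA. FA-sham mice (n = 4) had the FA diet and sham mice (n = 4) the diet without FA, both without DOXO, and the sources used here do not say what these animals were injected with. The diets ran on until tissue was taken at day 10, and DOXO-treated hearts come only from animals alive at that time. The mice within a group are numbered in the labels with nothing said of litters or processing days, and p-values measure the spread between these animals and their arrays.

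Proteins of the Bcl2 family decide whether the outer membrane of mitochondria is kept closed. Bcl2, Bcl-xL (from Bcl2l1) and Mcl-1 keep it closed by holding back the pore-forming proteins Bak and Bax, whereas the BH3-only proteins Bad, Bid and Bim (from Bcl2l11) release or activate these pores. Cytochrome c that escapes through them assembles with Apaf-1 and activates caspase-9, the first protease of this pathway, while Bnip3 and its relative Nix (from Bnip3l) mark mitochondria for removal by autophagy, and Bnip3 is a known target of the hypoxia-inducible factors. In cardiomyocytes, which are packed with mitochondria and are hardly replaced, these proteins have been studied in ischaemia and in the toxicity of anthracyclines.

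The arrays differed within each group in how widely their signals spread. The SD of all log2 signals of an array, the array SD, ranged from 0.863 to 1.501, and it exceeded 1.1 (wide arrays) in 2 of 6 FA-DOXO, 2 of 6 DOXO, 1 of 4 FA-sham and 3 of 4 sham mice. The group means of the array SD were 1.04 in FA-DOXO, 1.13 in DOXO, 0.96 in FA-sham and 1.27 in sham mice. All 8 cardiomyocyte markers listed had a mean over the 20 arrays above the median of all clusters. Their mean log2 signal moved with the spread of the array (Pearson r = 0.95 over 20 arrays). It lay between 8.45 and 12.22 in FA-DOXO, 8.96 and 12.79 in DOXO, 8.36 and 11.67 in FA-sham and 9.65 and 13.13 in sham mice. Of 5 neutrophil markers, 4 were higher in DOXO than in sham hearts at an unadjusted limma p under 0.01 (lowest adjusted p = 0.647), beside 1.05% of all clusters. In FA-sham against sham hearts 2 were higher (lowest adjusted p = 0.156), beside 4.35% of all clusters. The mean log2 signal of the 5 neutrophil markers was 6.69 in FA-DOXO (range over mice 6.48 to 6.98), 6.87 in DOXO (6.45 to 7.59), 6.50 in FA-sham (6.29 to 6.59) and 5.96 in sham mice (5.60 to 6.40), with r = -0.09 to the array SD over 20 arrays. In a piece of ventricle, fewer cells of a type and less RNA per cell cannot be told apart.

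The death regulators followed the array SD to unequal degrees, and in both directions. Over the 20 arrays, Pearson's r with the array SD was 0.97 for Mcl1, 0.94 for Bnip3l, 0.88 for Bnip3, 0.82 for Bak1, 0.68 for Bcl2l11, 0.67 for Bcl2 and 0.65 for Bcl2l1. It was -0.64 for Casp9, -0.66 for Bad and -0.88 for Bid, and the median of all clusters was -0.57. The largest shifts were those of Bnip3, at 10.52 ± 1.05 on wide and 8.17 ± 0.99 on narrow arrays (SD, n = 8 and 12), of Bnip3l, at 10.58 ± 0.56 on wide and 8.44 ± 0.65 on narrow arrays, and of Mcl1, at 9.18 ± 0.89 on wide and 7.16 ± 0.23 on narrow arrays. Bnip3 and Bnip3l also tracked the mean of the 8 cardiomyocyte markers (r = 0.89 and 0.96, n = 20), and Mcl1 did so at r = 0.91. Other marker means followed the array SD too, at r = 0.97 for smooth muscle and pericyte, 0.92 for endothelial, 0.91 for macrophage and 0.88 for fibroblast markers. For atrial cardiomyocyte, neutrophil, adipocyte and lymphocyte markers r was 0.20, -0.09, -0.95 and -0.97. Neither the array spread nor the cardiomyocyte marker levels were balanced over the groups. Each comparison is therefore given as measured and then with the array SD in the fit. The part of spread and marker levels in the differences was not tested.

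**Figure D1:**
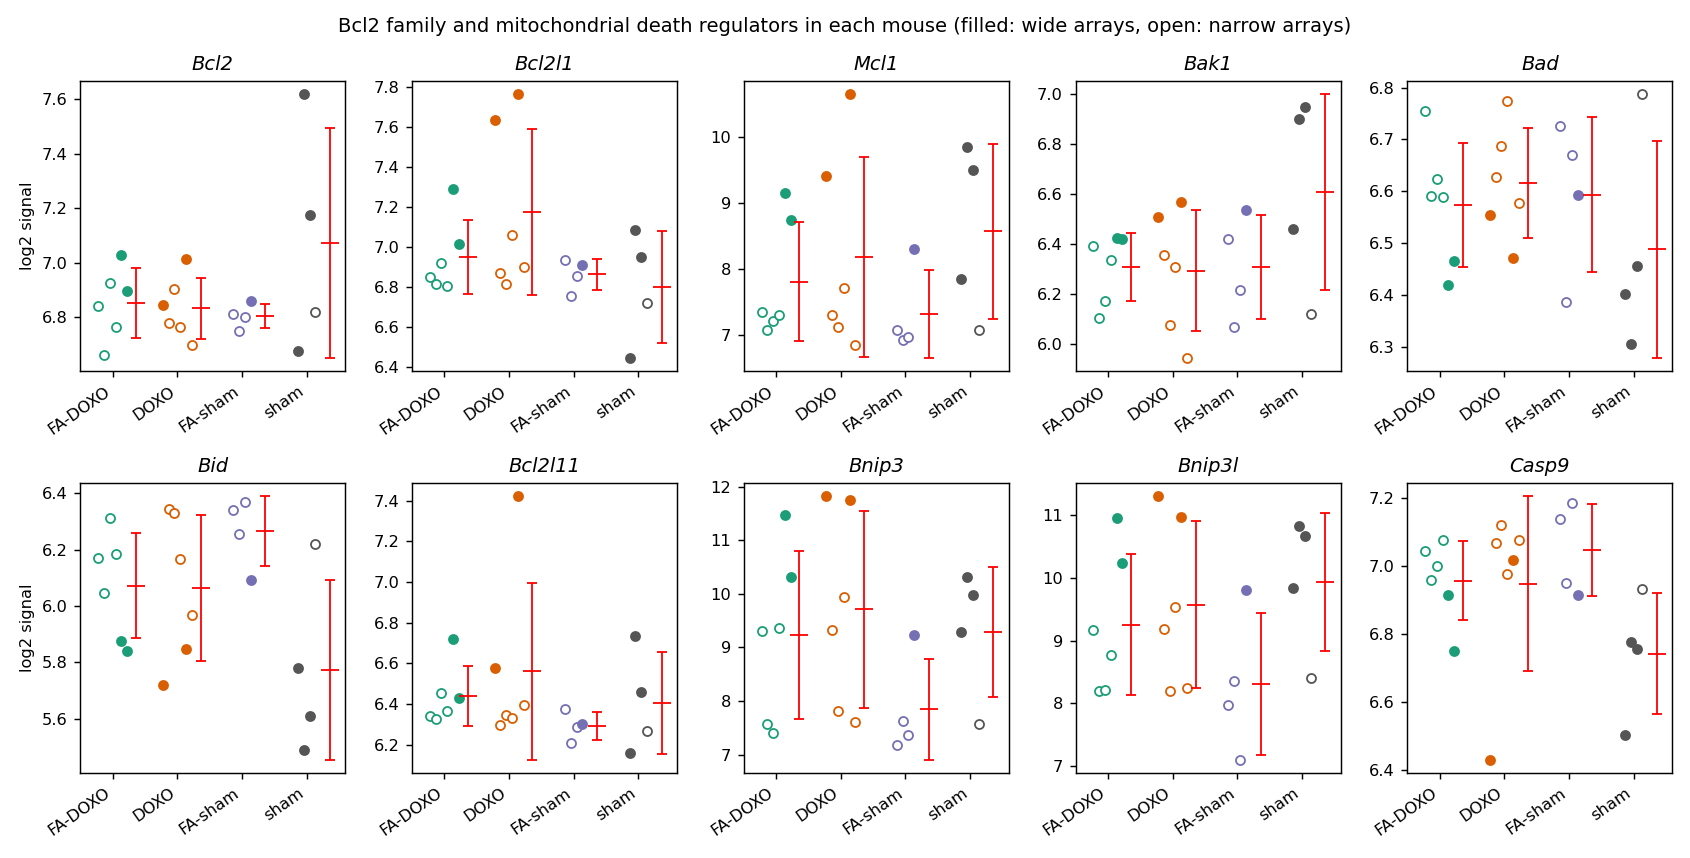
Log2 signal (vertical axis) of the 10 death regulators in each mouse, by group, filled where the array was wide and open where it was narrow, and the group mean ± SD in red. The 4 groups overlap for every gene, and the share of all clusters that do so was not counted. Wide arrays hold the high values of Mcl1, Bnip3 and Bnip3l, up to 11.83 for Bnip3 in a DOXO mouse.

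DOXO alone moved none of the 10 genes past the threshold. In DOXO against sham mice, 0 of 10 passed an unadjusted p of 0.01 or 0.05 and 0 passed an adjusted p of 0.05 in limma, against 1.05% of all clusters at the unadjusted 0.01. The log2 difference was above 0 for 6 genes and below 0 for 4, with a median of 0.14 beside 0.10 over all clusters. The 6 DOXO and the 4 sham mice overlapped for each gene, and the share of all clusters that overlap was not counted. Of the genes that keep cells alive, Bcl2l1 had the smallest p. Its signal had its lowest value at 6.82, its median at 6.98 and its highest at 7.76 in DOXO mice, and it was 6.45, 7.08, 6.95 and 6.72 in the sham mice. The 2 DOXO mice with wide arrays, at 7.63 and 7.76, lay above every sham mouse and the other 4 lay within the sham range. The log2 difference was 0.37 (SE 0.18, 95% interval -0.01 to 0.76, adjusted p = 0.647 from limma), a 1.30-fold higher signal (exact permutation test, two-sided, p = 0.181).

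Mcl1, whose short-lived product is lost within hours when its synthesis stops, varied more within groups than between them. DOXO mice ran from 6.85 through a median of 7.50 to 10.65, and the sham mice were at 7.84, 9.86, 9.50 and 7.08. The difference was -0.40 (SE 0.71, limma adjusted p = 0.773), with an interval from -1.88 to 1.09 that leaves room for large changes in either direction. Bcl2 itself was at 6.83 ± 0.11 in DOXO (SD, n = 6) and 7.07 ± 0.42 in sham mice (SD, n = 4), a difference of -0.24 (SE 0.14).

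Of the genes that open the membrane or act after it, none passed either. Bak1, which encodes a pore-forming protein of the outer membrane, was at 6.29 ± 0.24 in DOXO (SD, n = 6) and 6.61 ± 0.39 in sham mice (SD, n = 4), a difference of -0.31 (SE 0.16). The BH3-only gene Bid, whose product is cleaved by caspase-8 and links death receptors to mitochondria, was at 6.06 ± 0.26 in DOXO and 5.77 ± 0.32 in sham mice, a difference of 0.29 (SE 0.15). Bad, whose product is held inactive by phosphorylation, differed by 0.13 (SE 0.11). Bcl2l11 differed by 0.16 (SE 0.18), and this rested on DOXO mouse 5 at 7.42, without which the difference was -0.02. Casp9 was at 6.95 ± 0.26 in DOXO and 6.74 ± 0.18 in sham mice, a difference of 0.21 (SE 0.13), where DOXO mouse 1, at 6.43, lay below all sham mice and the other 5 DOXO mice lay above all of them. Without that mouse the difference was 0.31 (unadjusted p = 0.00802, adjusted p = 0.378 from limma), 1 of 10 genes past the unadjusted threshold beside 2.11% of all clusters in that fit. Without sham mouse 4, the only sham mouse with a narrow array, Bak1 at -0.48 and Bid at 0.44 passed the unadjusted threshold (limma adjusted p = 0.128 and 0.132), 2 of 10 genes beside 7.43% of all clusters in that fit. The signal of Bid lay below the array median on 20 of 20 arrays, where a low transcript level and background cannot be told apart. Bak1 and Bcl2l11 each lay above the array median on 5 of 20 arrays, and Bad on 12.

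Bnip3 and Bnip3l spread widely within each of the 4 groups, with or without DOXO. Group SDs ran from 0.94 (FA-sham) to 1.84 (DOXO) for Bnip3 and from 1.11 (sham) to 1.33 (DOXO) for Bnip3l. Bnip3 ran from 7.61 through a median of 9.64 to 11.83 in DOXO mice, and it was 9.28, 10.31, 9.98 and 7.58 in the sham mice. The highest DOXO values, 11.83 and 11.76, came from the 2 mice with wide arrays and lay above every sham mouse, whereas no DOXO mouse lay below them all. The difference was 0.42 (SE 0.90, interval -1.47 to 2.32, limma adjusted p = 0.806). Bnip3l ran from 8.19 through a median of 9.37 to 11.31 in DOXO mice and was 9.84, 10.83, 10.67 and 8.41 in the sham mice, with 2 DOXO mice above and 2 below every sham mouse. Its difference was -0.36 (SE 0.71, limma adjusted p = 0.791).

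**Figure D2:**
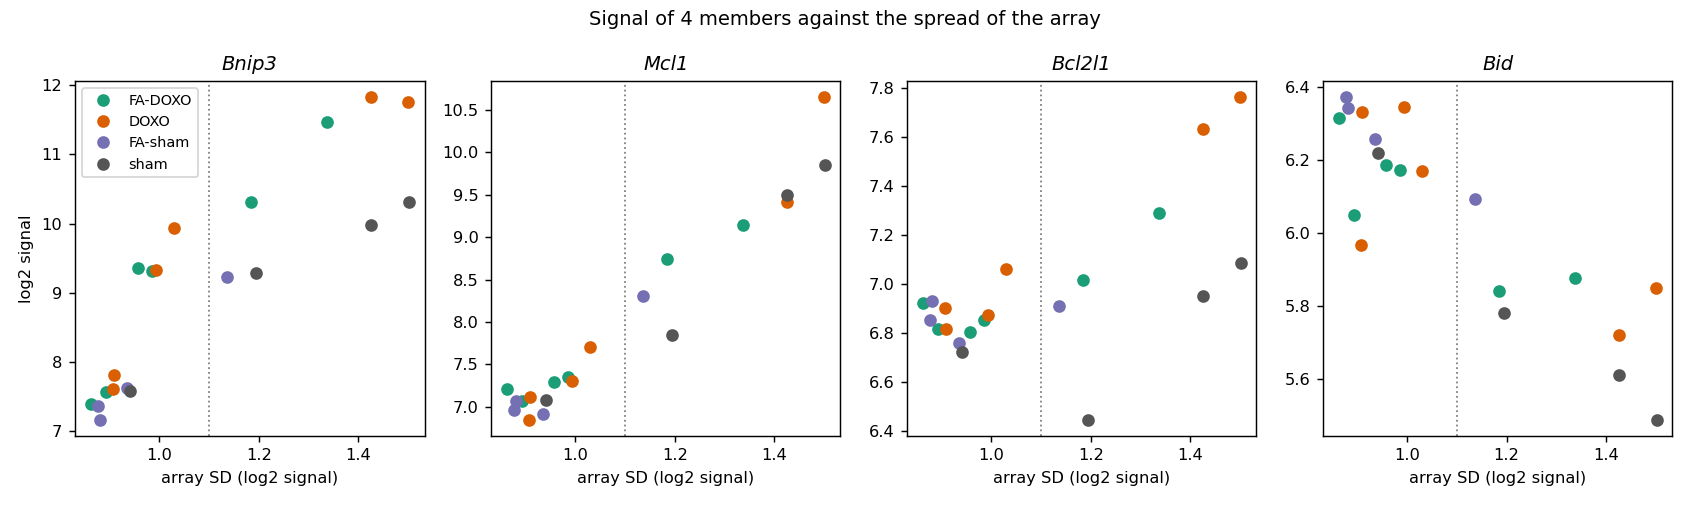
Log2 signal of Bnip3, Mcl1, Bcl2l1 and Bid (vertical axes) against the array SD in log2 units (horizontal axis), 1 point per mouse, coloured by group, with a dotted line between narrow and wide arrays. On wide arrays Bnip3 runs from 10.31 to 11.83 in DOXO-treated and from 9.24 to 10.31 in untreated mice, Mcl1 grows with the array SD in all 4 groups, and Bid falls as the array SD grows.

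Once the array SD entered the fit, the DOXO minus sham differences of Bcl2l1 and Bnip3 passed the unadjusted threshold. That fit uses 1 slope on the array SD for all 4 groups. With the array SD as a covariate, 2 of 10 genes passed an unadjusted p of 0.01 in DOXO against sham mice, beside 4.14% of all clusters. At an adjusted p of 0.05, 1 of 10 passed, Bcl2l1, beside 0.17% of all clusters. Bcl2l1 was higher by 0.53 (SE 0.10, interval 0.31 to 0.74, limma adjusted p = 0.0444), or 1.44-fold. Leaving out each of the 20 mice in turn under the same fit gave differences between 0.43 and 0.67, all at an unadjusted p under 0.01, whereas the adjusted call held in 3 of 20 such fits (without sham mouse 4, FA-sham mouse 4 or DOXO mouse 3), with adjusted p up to 0.152 without sham mouse 2. The adjusted call was also lost with a replicate block beside the covariate, at 0.49 (limma adjusted p = 0.310), and with the covariate after quantile normalization, at 0.38 (limma adjusted p = 0.134). FA-sham mice, without DOXO, stood 0.41 above the same sham mice in the fit with the covariate (SE 0.12). Among wide and among narrow arrays they stood 0.08 and 0.13 above them. With the covariate FA-DOXO against FA-sham mice differed by -0.002 (SE 0.10). The DOXO minus sham difference was larger among wide arrays. Among wide arrays Bcl2l1 was at 7.63 and 7.76 in 2 DOXO mice and at 6.45, 7.08 and 6.95 in 3 sham mice, a difference of 0.87, and among narrow arrays it was at 6.82 to 7.06 in 4 DOXO mice and at 6.72 in 1 sham mouse, a difference of 0.19.

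Bnip3 was higher by 1.32 with the covariate (SE 0.33, interval 0.63 to 2.01, unadjusted p = 0.000792, adjusted p = 0.109 from limma), or 2.50-fold. In the same fit FA-sham mice, without DOXO, were at 0.56 against these sham mice (SE 0.39, limma adjusted p = 0.757). The direction was the same in both kinds of array. On wide arrays Bnip3 was at 11.83 and 11.76 in 2 DOXO mice against 9.28, 10.31 and 9.98 in 3 sham mice, a difference of 1.93, and on narrow arrays at 9.33, 7.81, 9.94 and 7.61 in 4 DOXO mice against 7.58 in 1 sham mouse, a difference of 1.09. In the fit of wide arrays alone, 2 of 10 genes, Bnip3 and Bcl2l1, passed the unadjusted threshold beside 1.01% of all clusters (limma adjusted p = 0.712 and 0.973). Without a mouse, the difference with the covariate lay between 1.17 and 1.52, and its unadjusted p was under 0.01 in 20 of 20 fits. The other 8 genes did not pass, among them Mcl1 at 0.34 (SE 0.16), Bnip3l at 0.36 (SE 0.23) and Bcl2l11 at 0.29 (SE 0.13). For Mcl1 and Bnip3l the direction turned with the covariate.

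Averaged over both diets, 12 DOXO-treated against 8 untreated mice, 0 of 10 genes passed without the covariate, beside 0.506% of all clusters. With the array SD in the fit 2 of 10 passed the unadjusted threshold, beside 2.83% of all clusters, and again these were Bnip3 at 1.096 (SE 0.23, limma adjusted p = 0.0549) and Bcl2l1 at 0.26 (SE 0.07, limma adjusted p = 0.178). Bnip3l stood at 0.45 (SE 0.16, limma adjusted p = 0.371). This average uses the DOXO and sham mice of the comparison above and is not a second experiment.

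Bnip3 and Bnip3l are each read by a second cluster that lists the same transcripts. The lists cannot set apart probes that also match a near-identical copy. For regulators with a single cluster, cluster numbers followed the chromosomes sorted as text. They rose from Bcl2 (10357043, chromosome 1) through Bak1 (10449303, chromosome 17) to Bid (10547531, chromosome 6). Bnip3 lies on chromosome 7, and 10568785 falls after Bid, whereas the cluster used, 10414269, falls between Bcl2 and Bak1. The Bnip3 values given elsewhere may come from a copy, which was not tested. Both Bnip3l clusters fall between Bcl2 and Bak1, so this order cannot separate them. The second Bnip3 cluster, 10568785, moved with the first, 10414269, at r = 0.97 over 20 arrays. With the covariate it was higher by 1.17 in DOXO than in sham mice (SE 0.23, limma adjusted p = 0.0452) and by 0.88 over both diets (SE 0.16, limma adjusted p = 0.0273), so for Bnip3 the adjusted call turns on which cluster is read. The second Bnip3l cluster, 10421003, followed the first, 10394800, at r = 0.98 and differed by 0.23 with the covariate (SE 0.28, limma adjusted p = 0.796).

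Because Bnip3 had the largest difference with the covariate, the bases before its start are shown, from RefSeq on GRCm38.p6, minus strand, chr7:138909507-138909756, 5′ to 3′, with the palindrome CACGTG in capitals. It holds ACGTG, the core of the element that hypoxia-inducible factors bind, on both strands, and the 2 copies overlap.
Bnip3: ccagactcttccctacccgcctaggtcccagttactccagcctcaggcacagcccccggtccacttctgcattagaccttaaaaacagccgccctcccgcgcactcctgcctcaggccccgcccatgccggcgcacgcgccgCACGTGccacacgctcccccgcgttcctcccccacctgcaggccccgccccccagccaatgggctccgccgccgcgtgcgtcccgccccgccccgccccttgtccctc
The motif lies 108 to 103 bases before the start. ACGTG, searched on both strands, occurs in 16.6% of the 32851 windows of 250 bases before annotated starts and in 1 of the 13 windows of the 9 death regulators matched in that table, that of Bnip3. The match describes the letters and no factor binding was measured.

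FA in DOXO-treated mice moved none of the 10 genes past the threshold. In FA-DOXO against DOXO mice 0 of 10 passed the unadjusted p of 0.01, beside 0.158% of all clusters, and the median difference was -0.08 beside 0.03 over all clusters. Bcl2l1 ran from 6.80 through a median of 6.89 to 7.29 in FA-DOXO mice and from 6.82 through 6.98 to 7.76 in DOXO mice. The groups overlapped, with 1 FA-DOXO mouse below every DOXO mouse and 2 DOXO mice above every FA-DOXO mouse, and the difference was -0.22 (SE 0.16, interval -0.57 to 0.12, limma adjusted p = 1.00), or -0.12 with the array SD in the fit (SE 0.09). Bnip3 ran from 7.40 through 9.34 to 11.48 in FA-DOXO mice and from 7.61 through 9.64 to 11.83 in DOXO mice, a difference of -0.48 (SE 0.81), which became 0.11 (SE 0.29) with the covariate. The differences of Mcl1, at -0.37 (SE 0.63), and of Bnip3l, at -0.32 (SE 0.64), also turned to values above 0 with it, 0.11 and 0.15. Bcl2l11 was at -0.12 (SE 0.16), and the other 5 genes lay between -0.04 and 0.02, with Bad lowest and Bcl2 highest. For Bad the interval ran from -0.24 to 0.16, so that changes larger than these were outside it.

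Under FA, the DOXO difference did not pass for any gene either, with 0 of 10 in FA-DOXO against FA-sham mice beside 0.268% of all clusters. Bnip3 ran from 7.40 through 9.34 to 11.48 in FA-DOXO mice and was 7.17, 7.62, 7.37 and 9.24 in the FA-sham mice. Thus 4 of 6 FA-DOXO mice lay above every FA-sham mouse and the other 2 among them. The difference of 1.39 (SE 0.90, interval -0.51 to 3.28, limma adjusted p = 0.983) had an exact two-sided permutation p of 0.105, and with the covariate it was 0.87 (SE 0.32, unadjusted p = 0.0144, adjusted p = 0.961 from limma). Among narrow arrays it was 1.02, with 9.32, 7.57, 7.40 and 9.36 in FA-DOXO mice against 7.17, 7.62 and 7.37 in FA-sham mice. Bnip3l differed by 0.95 (SE 0.71), and by 0.54 with the covariate (SE 0.23).

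**Figure D3:**
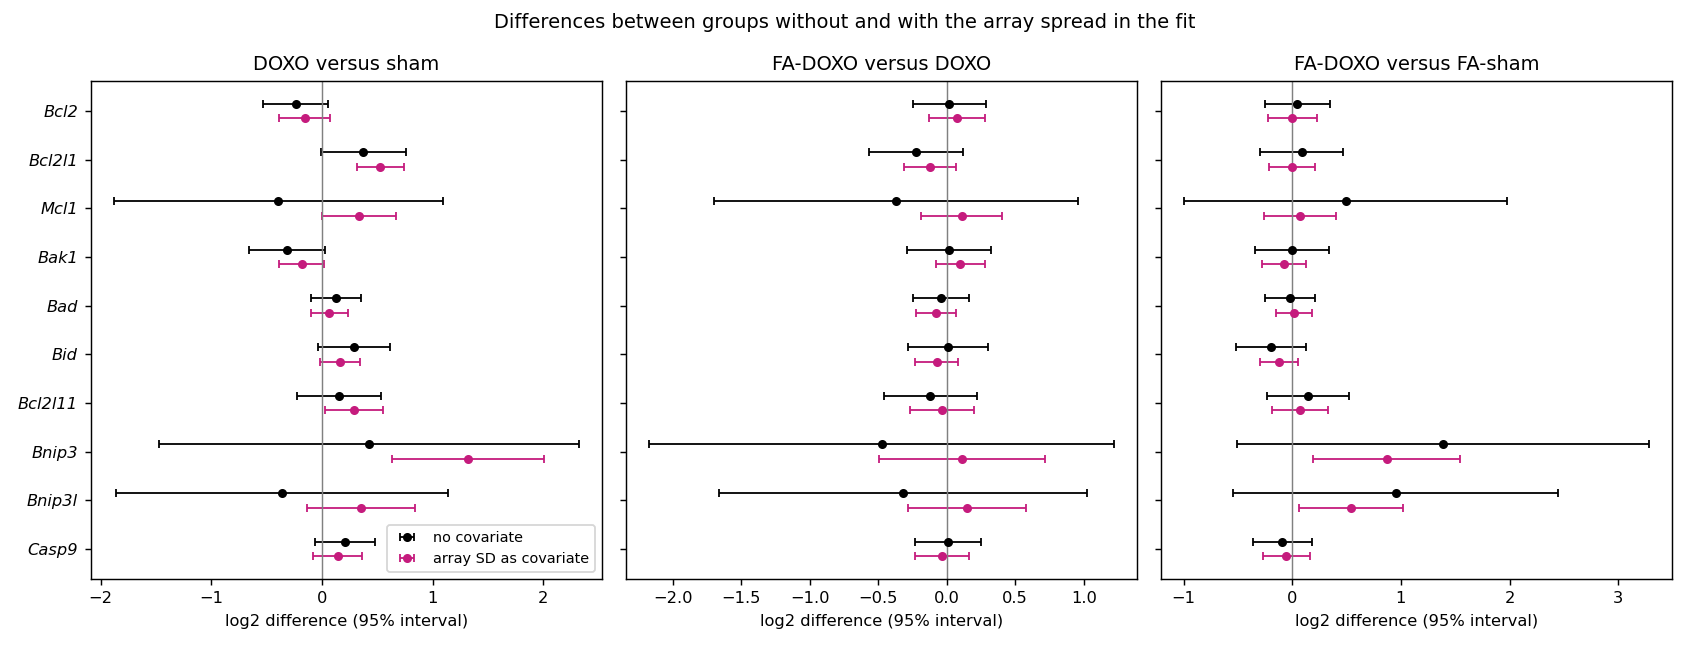
Log2 difference with its 95% interval (horizontal axes) of the 10 genes in 3 comparisons, without a covariate in black and with the array SD as a covariate in magenta. Without the covariate the intervals of all 10 genes span 0 in the 3 comparisons, and with it those of Bcl2l1, at 0.53, and Bnip3, at 1.32, lie farthest from 0 relative to their width in DOXO against sham mice. With the covariate those of Bcl2l11 in DOXO against sham mice (0.02 to 0.55) also lie above 0. So do those of Bnip3 (0.19 to 1.55) and Bnip3l (0.06 to 1.01) in FA-DOXO against FA-sham mice.

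FA in mice without DOXO gave the single call without a covariate, Bid, 1 of 10 genes beside 4.35% of all clusters. Bid was 6.34, 6.26, 6.37 and 6.09 in FA-sham mice and 5.78, 5.49, 5.61 and 6.22 in sham mice. The mouse with a wide array in FA-sham and the mouse with a narrow array in sham are those that overlap. Bid was higher by 0.49 in FA-sham mice (SE 0.17, unadjusted p = 0.00918, adjusted p = 0.156 from limma, exact permutation p = 0.0571, where 0.0286 is the smallest that 4 against 4 mice allow). With the covariate the difference was 0.21 (SE 0.10) and did not pass, and within narrow arrays it was 0.10. All clusters had a median difference of 0.19 in this comparison, 0.03 after quantile normalization and -0.04 after median centring of the arrays, and under these scalings Bid was at 0.16 and 0.26 and did not pass. Without sham mouse 4 it was at 0.64 (limma adjusted p = 0.0283), in a fit where 42.6% of all clusters and 3 of 10 genes passed the adjusted threshold. Casp9, at 7.05 ± 0.14 in FA-sham and 6.74 ± 0.18 in sham mice (SD, n = 4 each), differed by 0.30 (SE 0.14), and Bnip3l, at 8.31 ± 1.13 in FA-sham and 9.94 ± 1.11 in sham mice, differed by -1.63 (SE 0.78), neither past the threshold. With the covariate Casp9 was at 0.16 and Bnip3l at -0.03. In that fit 1 of 10 genes passed, beside 1.83% of all clusters, and it was Bcl2l1, at 0.41 (SE 0.12, limma adjusted p = 0.516) against 0.06 without the covariate. The Bcl2l1 difference was 0.08 among wide and 0.13 among narrow arrays.

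The interaction, which asks whether the DOXO difference was another under FA, passed for 0 of 10 genes beside 0.463% of all clusters. Bid had the smallest p, at -0.48 (SE 0.22, unadjusted p = 0.0400, adjusted p = 0.570 from limma), and without sham mouse 4 it passed the unadjusted threshold at -0.63, beside 4.91% of all clusters in that fit. With the covariate 1 of 10 passed beside 1.78% of all clusters. This was Bcl2l1, at -0.53 (SE 0.14, unadjusted p = 0.00181, adjusted p = 0.535 from limma), against -0.29 without it (SE 0.26). At the average array SD the fitted mean of Bcl2l1 was 7.01 in FA-DOXO, 7.14 in DOXO, 7.01 in FA-sham and 6.61 in sham mice, with the sham group lowest. The fitted FA-sham mean lay above every measured FA-sham signal (6.76 to 6.93). Among wide and among narrow arrays FA-sham minus sham was 0.08 and 0.13, with 1 wide FA-sham and 1 narrow sham mouse. The comparisons of DOXO with sham, of FA-sham with sham and the interaction all use these 4 sham mice, and sham mouse 1, at 6.45, held the lowest Bcl2l1 signal of the 20 arrays.

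Set in order, the group means of these genes seldom stood apart. The highest mean was that of DOXO mice for Bcl2l1, Bad, Bcl2l11 and Bnip3, that of FA-sham mice for Bid and Casp9, and that of sham mice for Bcl2, Mcl1, Bak1 and Bnip3l. FA-DOXO mice had neither the highest nor the lowest mean of any of the 10 genes. Neighbours in the order were closer than the larger SD of both for every gene, with 1 exception in Bid, where FA-sham exceeded FA-DOXO by 0.19. The span between the highest and the lowest group was below the largest SD of a group for Bcl2, Bcl2l1, Mcl1, Bad, Bak1 and Bcl2l11.

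Pairs of these genes were compared over the 20 arrays as a description. Bnip3 and Bnip3l moved together at r = 0.94, and at 0.62 after group and array SD had been taken out. Bcl2l11 moved with Bcl2l1 at 0.85 and with Mcl1 at 0.79, and at 0.65 and 0.73 after the same step. Mcl1 and Bnip3l, at 0.91, turned to -0.41 after it. The clusters most like Bnip3 were Gpx3 and Dpep1 (r = 0.99 each), and after group and array SD they were Akr1a1 and Slc25a20 (r = 0.90 each). For Bcl2l1 they were Trp53inp1 and Nop14 (r = 0.94 each), and Dnajc3 (r = 0.94) and Pwp1 (r = 0.91) after that step. These pairs share the spread of the arrays and were picked as the highest of all clusters with 1 symbol.

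The rest of the pathway was read from lists of related genes. In DOXO against sham mice, without the covariate, 1.05% of all clusters passed the unadjusted 0.01. Beside this, 0 of 3 measured survival genes, 0 of 10 pore-forming and BH3-only genes and 0 of 13 genes of the apoptosome, released proteins and caspases passed. Likewise 0 of 7 genes of the mitochondrial pore and 0 of 6 mitophagy genes passed. Counts of 0 in lists this short are near the share of all clusters. Of 10 death receptor genes 0 were higher and 2 lower. The lower ones were Tnfsf10, the ligand TRAIL, at -0.81 (SE 0.27), and Mlkl, which perforates the plasma membrane in necroptosis, at -0.30 (SE 0.10, limma adjusted p = 0.647 for both). The list medians were 0.20, 0.16, -0.32, -0.82, -0.38 and 0.02 in that order, beside 0.10 over all clusters. The genes of the pore, such as Ppif (cyclophilin D) at -1.07 (SE 0.80) and Vdac3 at -1.05 (SE 0.89), followed the array SD at r = 0.93 and 0.96.

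Once the array SD was in the fit, 3 of 6 mitophagy genes passed the unadjusted threshold as higher in DOXO against sham mice and 0 as lower, beside 4.14% of all clusters, with a list median of 0.48 beside 0.04 over all clusters. Sqstm1, the adaptor p62 that carries tagged cargo into autophagosomes, was at 1.24 (SE 0.25, limma adjusted p = 0.0552) and Map1lc3b, which coats their membrane, at 0.88 (SE 0.24, limma adjusted p = 0.151), and the third was Pink1, the kinase that accumulates on damaged mitochondria, at 0.68 (SE 0.18, limma adjusted p = 0.140), named after its value was seen. Without the covariate these differences were 0.15 for Sqstm1, 0.09 for Map1lc3b and -0.37 for Pink1. In FA-sham mice, which had no DOXO, the differences from the same sham mice with the covariate were 0.79 for Sqstm1 (SE 0.30), 0.52 for Map1lc3b (SE 0.29) and 0.70 for Pink1 (SE 0.22), of which Pink1 passed the unadjusted threshold (limma adjusted p = 0.516). In FA-DOXO against FA-sham mice the differences were 0.72 for Sqstm1 (SE 0.25), 0.50 for Map1lc3b (SE 0.24) and 0.18 for Pink1 (SE 0.18). Fundc1, another mitophagy receptor, was at -1.096 without the covariate (SE 0.86). Over both diets Sqstm1 was higher by 0.98 (SE 0.17, limma adjusted p = 0.0273), the 1 gene of these lists past the adjusted threshold there. None of 3 survival genes and none of 10 pore-forming and BH3-only genes passed with the covariate in this comparison. Of the 13 apoptosome and caspase genes 1 was higher, Birc3, an inhibitor of apoptosis, at 0.34 (SE 0.11), and 1 lower, Casp6, an executioner caspase, at -0.42 (SE 0.12). Of 7 pore genes 1 was higher, Tspo, a cholesterol-binding protein of the outer membrane, at 0.39 (SE 0.13). Of 10 death receptor genes 2 were higher, among them Tnf at 0.22 (SE 0.07), and the other was Fas, at 0.66 (SE 0.13, limma adjusted p = 0.0526), also named after its value was seen. Another 2 were lower, again Tnfsf10 at -0.61 (SE 0.21) and Mlkl at -0.27 (SE 0.08). Fas was also higher in FA-sham mice, which had no DOXO, than in sham mice, by 0.65 (SE 0.16, unadjusted p = 0.000702, adjusted p = 0.469 from limma). It was at -0.11 in FA-DOXO against FA-sham mice (SE 0.13), with an interaction of -0.76 (SE 0.19, unadjusted p = 0.000802, adjusted p = 0.535 from limma).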

How the data were processed

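Left ventricular RNA of 20 mice was hybridised to Affymetrix Mouse Gene arrays, 1 per mouse. The deposited values are log2 signals per transcript cluster, prepared by the authors in R 2.14.2 (submitters' processing notes) with Bioconductor. The sources used here do not name the background correction, normalization or probe summary, and array quantiles still differ, so the spread of an array enters every comparison. Scans were not used.

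For each of 34760 clusters a model with 1 mean per group was fitted in limma 3.58.1 (R 4.3.3), using the 20 arrays together without filter or covariate, with two-sided moderated tests, the unadjusted threshold of 0.01 that the methods name and Benjamini-Hochberg adjustment at 0.05. In 20 cases single genes were also tested with exact permutation tests (SciPy 1.17.1), unadjusted. Gene symbols came from the platform annotation. Named genes were the 10 genes and, per related list, up to 3 with the smallest p for DOXO over both diets. Members, lists and most alternatives, the array SD as a covariate and its split at 1.1 among them, were chosen with earlier results of these data known. Fits were run on simulated data with noise drawn separately for each cluster. Only the simulation of the covariate fit held an array spread, with 1 slope per cluster for all groups. How the fits behave under the spread of these arrays was therefore not tested. The number of arrays limits the precision. Figures were drawn with matplotlib 3.10.9.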

Additional observations from a re-analysis of the deposited data

Results flagged for a closer look

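In 4 of 40 groups of 4 to 6 mice, 1 mouse lay far from the rest of its group, where chance gives about 1 in 20 groups. Mcl1 was at 8.30 in FA-sham mouse 4, with the next mouse at 7.07, and this was the only FA-sham mouse with a wide array. Bcl2l11 was at 7.42 in DOXO mouse 5, with the next at 6.58, and at 6.72 in FA-DOXO mouse 5, with the next at 6.45, and these mice had the widest array of their group, with array SDs of 1.499 and 1.34. Casp9 was at 6.43 in DOXO mouse 1, below the next at 6.98, on an array with an SD of 1.43. The part of array spread in these 4 values was not tested.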

How the results depend on the processing

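The counts of genes past the unadjusted 0.01 depended on how the array spread was treated. In DOXO against sham mice the count was 2 in each of 4 settings. These were the array SD as covariate, wide arrays only, the covariate with a replicate block, and the covariate after quantile normalization. All clusters passed there at 4.14%, 1.01%, 2.21% and 2.09%. The count was 0 to 2 when each mouse was left out, beside 0.394% to 7.43% of all clusters. Over both diets it was 2, 1, 2 and 2 in the order of the 4 settings, beside 2.83%, 0.751%, 1.82% and 2.5% of all clusters. In the interaction it was 1 with the covariate, also with the replicate block or after quantile normalization, beside 1.78%, 1.39% and 1.17% of all clusters. Without a mouse it was 0 to 1, beside 0.219% to 4.91% of all clusters. In FA-DOXO against FA-sham mice it was 1, Bnip3 at 0.95, with the covariate and the replicate block, beside 0.981% of all clusters. In FA-sham against sham mice it was 0 with quantile normalization, median centring, wide or narrow arrays only, the replicate block, the compared groups alone, and the covariate with the replicate block or after quantile normalization. In these settings 0.365% (wide arrays) to 5.08% (replicate block) of all clusters passed. Without a mouse it was 0 to 1, beside 0.685% to 28.1% of all clusters, and Bid lost its call in 11 of 20 fits. The fit of bright clusters only also gave 0, beside 2.41% of these clusters, but it tested 7 of the 10 genes and left Bid out. The adjusted call of Bcl2l1 in DOXO against sham mice, made with the covariate, was lost with the replicate block and after quantile normalization, at adjusted p of 0.310 and 0.134.

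Of the DOXO minus sham differences, Mcl1 turned to 0.34 with the covariate, 0.97 on wide and 0.17 on narrow arrays, 0.29 with the covariate and the replicate block, 0.22 with the covariate after quantile normalization, and lay between -0.89 and 0.034 without a mouse. Bnip3l turned to 0.36, 0.70, 0.38, 0.45 and 0.29 in those settings and to 0.020 with quantile normalization. Bad was at -0.12, Bak1 at 0.052 and Bid at -0.017 on narrow arrays, and Bad at -0.00068 with the covariate after quantile normalization. Without a mouse Bcl2l11 lay between -0.017 and 0.27 and Bnip3 between -0.15 and 0.84. In FA-DOXO against DOXO mice the covariate alone, with the replicate block and after quantile normalization gave 0.11, 0.10 and 0.13 for Mcl1, 0.11, 0.12 and 0.030 for Bnip3, and 0.15, 0.17 and 0.10 for Bnip3l. Bcl2l11 was at 0.031 on narrow arrays and 0.0022 with the covariate after quantile normalization. Without a mouse Mcl1 lay between -0.64 and 0.13, Bcl2l11 between -0.18 and 0.052, and Bnip3l between -0.66 and 0.028. Bnip3l was at 0.047 in FA-sham against sham mice with the covariate and the replicate block, and at -0.049 over both diets with the replicate block. The covariate with the replicate block, the covariate after quantile normalization and the covariate without each mouse were chosen after seeing the data. Of 856 alternative values of 25 differences, 699 kept direction and side of the threshold, 479 from leaving out 1 mouse and 220 from other alternatives. Leaving out a mouse of a group outside a comparison cannot change its difference, so part of the 479 was fixed in advance. Among the other alternatives, the covariate fits without a mouse included, 28 turned direction, 99 came to pass the threshold and 9 ceased to. When 1 mouse was left out, 6 turned direction, 4 came to pass and 11 ceased to. Same-numbered mice of compared groups deviated together at r between -0.86 and 0.84, so the labels' numbers were not taken as pairs. The causes of these shifts were not tested, and 4 to 6 arrays per group limit the precision.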
